A study of Mus musculus with 68 samples.

Results

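The 37 interferon-stimulated genes described here are genes whose RNA is raised by interferons. They were taken as a fixed list of names, and all 37 were found among the 23356 rows of the deposited table of FPKM values (fragments per kilobase of transcript, scaled to the mapped fragments of each library, so that a level takes account of transcript length). All 37 also reached 1 FPKM in at least 2 of the 23 intestinal specimens and were among the 14098 genes tested. Every mouse was C57BL/6 and 3 months old. The study set out to find genes and pathways tied to loss of Cftr, an epithelial chloride and bicarbonate channel, in mice with a wildtype Apc gene and in ApcMin mice, whose Min allele of the Wnt pathway inhibitor Apc causes intestinal tumours. Apc wildtype mice gave 2 Cftr-wildtype and 2 Cftr-knockout specimens each of normal colon and of normal duodenum, and other knockout animals gave 2 duodenal tumours and 1 colon tumour, the colon tumour and duodenal tumour 2 coming from 1 animal. Their knockout was made with a floxed Cftr allele and Villin-Cre, which is active in the gut epithelium and leaves other cells intact. From ApcMin mice came pairs of tumours: colon and ileum pairs of Cftr-wildtype and of Cftr-knockout animals, and colon and duodenum pairs of heterozygous animals, labelled a knockdown. How Cftr was removed in the ApcMin mice is not given in the sources used here.

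Some features of the series touch every result that follows. Only 10 animal numbers stand behind the 23 specimens. Each pair of ApcMin tumours shares 1 number, and for wildtype and knockout Cftr the colon and ileum pairs share it too, so in ApcMin tumours genotype and animal cannot be told apart. The normal colon is labelled whole tissue and the normal duodenum epithelium, whereas the design text describes colon epithelial cells and duodenum without villi. Both normal tissues held RNA of smooth muscle, with the summed FPKM of 6 marker genes at 2354 to 2961 in colon and 790 to 856 in duodenum. Cftr RNA ranged from 11.2 to 77.2 FPKM over knockout specimens and from 18.0 to 32.0 FPKM over wildtype ones, so its level did not separate the labels. The value covers the whole gene, and whether the deleted part was missing could not be checked. Xist, which marks female cells, reached 24.0 to 55.6 FPKM in each ApcMin tumour and 34.2 FPKM in knockout duodenal tumour 1, against 0.0212 to 0.461 FPKM elsewhere. Sex and tumour therefore cannot be told apart in the comparisons of ApcMin tumours with normal tissue. The 2 wildtype duodenum specimens differed by no more than their sequencing lanes did, with a ratio of 0.987 in run 1 and 1.05 in run 2 against 1.97 to 5.48 elsewhere, and were counted as 1 sample. Knockout duodenum 1 stood apart in 6 markers of pancreatic acinar cells, which summed to 1066 FPKM there, against 7.26 in knockout duodenum 2 and 9.37 and 10.8 in wildtype duodenum. Results that rest on it are also given without it, and the part of this RNA in them was not tested.

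Interferons of type I and type III signal through their receptors and the kinases JAK1 and TYK2 to a complex that contains STAT2 and IRF9. That complex binds the interferon-stimulated response element (ISRE) in promoters, whereas interferon gamma acts mainly at the gamma-activated site (GAS). The proteins made in response sense foreign nucleic acid, block viral replication, tag other proteins with ISG15 and attack the vacuoles of intracellular microbes. In the gut, epithelial cells are a main target of type III interferon.

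The members fall into 5 roles. The sensors are Ddx58 (RIG-I) and Ifih1 (MDA5), which detect viral RNA, Dhx58 (LGP2), which modulates them, and Zbp1, which binds Z-form nucleic acid. The transcription factors are Irf7, Irf9 and Stat2. The 18 antiviral effectors comprise the Ifit genes, whose products bind viral RNA, the 2-prime-5-prime oligoadenylate synthetase genes (Oas1a, Oas1g, Oas2, Oas3, Oasl1 and Oasl2), Rsad2 (viperin), Mx1, Mx2, Bst2 (tetherin), Cmpk2, Rtp4, Xaf1, Ifi35 and Ifi44. The 6 genes of protein modification are Isg15, a ubiquitin-like protein, Usp18, the protease that removes it and restrains the type I receptor, Parp9, Parp14, Dtx3l and Trim30a. The 6 GTPases are Gbp2, Gbp3, Gbp7, Igtp, Irgm1 and Iigp1, guanylate-binding proteins and immunity-related GTPases best known as targets of interferon gamma.

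Promoter sequences were matched in RefSeq (GRCm38.p6) for 27 of the 37 members, as 300 bases from 250 before to 50 after the start site. The remaining ones were Oas2, Mx1, Mx2, Usp18, Dhx58, Rtp4, Parp9, Parp14, Zbp1 and Iigp1. The letters GAAANNGAAA, searched on both strands as a core of the ISRE, were present in 17 of the 27 members (63%) and in 3.99% of 27025 genes. They stood in 5 of 5 matched GTPases, 7 of 14 effectors, 2 of 3 modifiers, 2 of 2 sensors and 1 of 3 transcription factors. The GAS letters TTCNNNGAA were present in 6 of the 27 members (22.2%) and in 9.55% of genes, and no match of either says only that these letters are not in this window. The windows below are shown for members on which later results turn. Isg15 and Ifit1 were among the 5 members with the widest fold range over specimens, Oas3 and Oas1a lie in one gene cluster but differ in pattern, and Gbp2 and Irgm1 are GTPases that were not higher in duodenum. Capitals mark the ISRE letters, or TTTCNNTTTC where the match is on the other strand, and each sequence runs 5′ to 3′ along the gene's strand.
Isg15, chr4:156200855-156200916, minus strand: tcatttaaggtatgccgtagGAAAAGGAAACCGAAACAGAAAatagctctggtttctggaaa
Ifit1, chr19:34640765-34640833, plus strand: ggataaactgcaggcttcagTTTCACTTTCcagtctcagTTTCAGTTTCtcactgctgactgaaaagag
Oas3, chr5:120777705-120777754, minus strand: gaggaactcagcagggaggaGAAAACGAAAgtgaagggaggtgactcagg
Oas1a, chr5:120907510-120907565, minus strand: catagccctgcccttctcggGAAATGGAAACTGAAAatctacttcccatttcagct
Oas1g, chr5:120887596-120887651, minus strand: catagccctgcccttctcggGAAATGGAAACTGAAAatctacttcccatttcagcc
Gbp2, chr3:142620584-142620633, plus strand: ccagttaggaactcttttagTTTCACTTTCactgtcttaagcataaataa
Irgm1, chr11:48871415-48871470, minus strand: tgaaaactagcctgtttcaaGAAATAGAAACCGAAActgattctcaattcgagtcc
Isg15 has 3 overlapping matches, beginning at -78, -72 and -66 from the start site. Ifit1 has 2, at -104 and -85. Oas1a and Oas1g carry the same overlapping pair in nearly the same surroundings, at -20 and -14 and at -18 and -12. These genes also share 57.6% and 54.7% of the 50-base stretches of their transcripts with each other, so their FPKM values may draw on each other's reads. Ifit3 shares 51.2% with Ifit3b. The spans of Irf7, Irf9, Parp9, Dtx3l, Rtp4 and Igtp, introns included, overlap other protein-coding genes, on the same strand for Irf9 and Igtp. Reads from exons shared by such a pair may not be told apart, and whether exons overlap was not checked.

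The members were highest in normal duodenum and lowest in colon tumours of heterozygous ApcMin mice. Of the 37, 30 had their highest group mean in normal duodenum (19 in knockout and 11 in wildtype), 5 in a tumour group and 2 in normal colon. Every member had its lowest group mean in a tumour group, and for 28 this was the heterozygous colon tumours. Most of the groups are tumour groups, and the shares of all genes with these extremes were not counted. The summed FPKM of the 37 members was 882 to 1103 in normal duodenum and 405 to 540 in normal colon. Among tumours it was 481 and 749 in heterozygous duodenal tumours, 464 and 476 in knockout duodenal tumours, 340 and 391 in knockout ileum tumours and 289 and 295 in wildtype ileum tumours. Colon tumours gave 319 and 359 (ApcMin knockout), 293 (Apc wildtype knockout), 213 and 245 (ApcMin wildtype) and 167 and 169 (heterozygous). Knockout duodenal tumours lay within the range of normal colon, while normal duodenum and heterozygous colon tumours stood clear of every other group. These are bulk specimens, in which fewer cells of a type and less RNA per cell cannot be told apart.

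**Figure D1:**
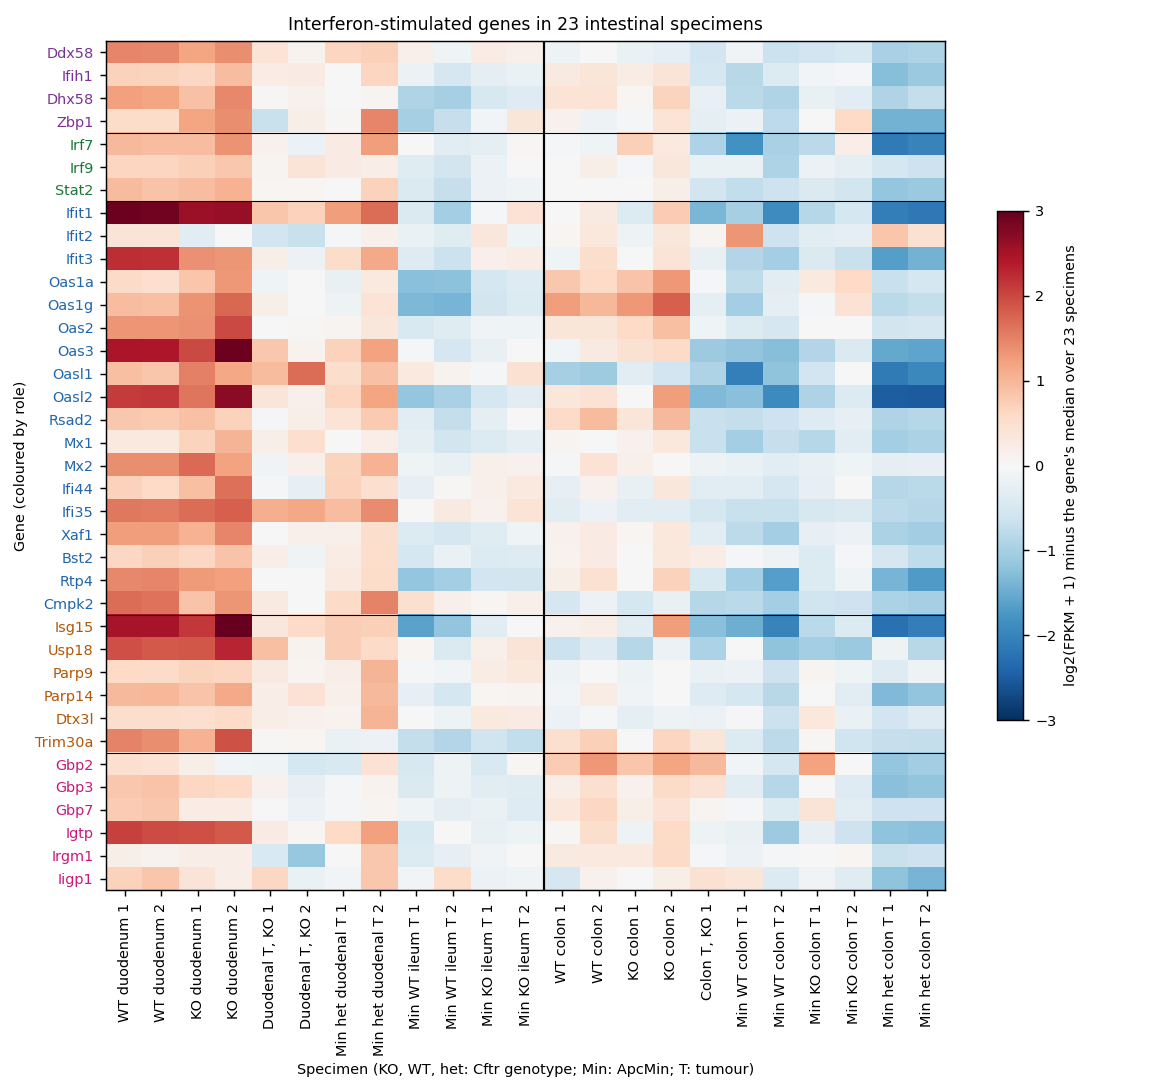
Level of each of the 37 genes (rows, coloured by role) in each of 23 specimens (columns), as log2(FPKM + 1) minus the gene's median over specimens. Small intestine is left of the vertical line and colon right of it; the normal duodenum columns are red for most genes and the heterozygous colon tumour columns blue.

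Isg15 shows the pattern in full. It stood at 101 and 100.3 FPKM in wildtype duodenum and 78.0 and 146 FPKM in knockout duodenum, against 19.0 and 20.03 FPKM in wildtype colon and 13.5 and 42.9 FPKM in knockout colon. Duodenal tumours held 22.1 and 26.0 FPKM (knockout) and 29.3 and 29.0 FPKM (heterozygous). Ileum tumours held 5.02 and 7.04 FPKM (wildtype) and 13.7 and 17.3 FPKM (knockout), and colon tumours 2.90 and 3.33 FPKM (heterozygous), 3.53 and 5.64 FPKM (ApcMin wildtype), 6.66 FPKM (Apc wildtype knockout) and 9.39 and 12.8 FPKM (ApcMin knockout). The highest specimen was thus 50.3-fold above the lowest.

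**Figure D2:**
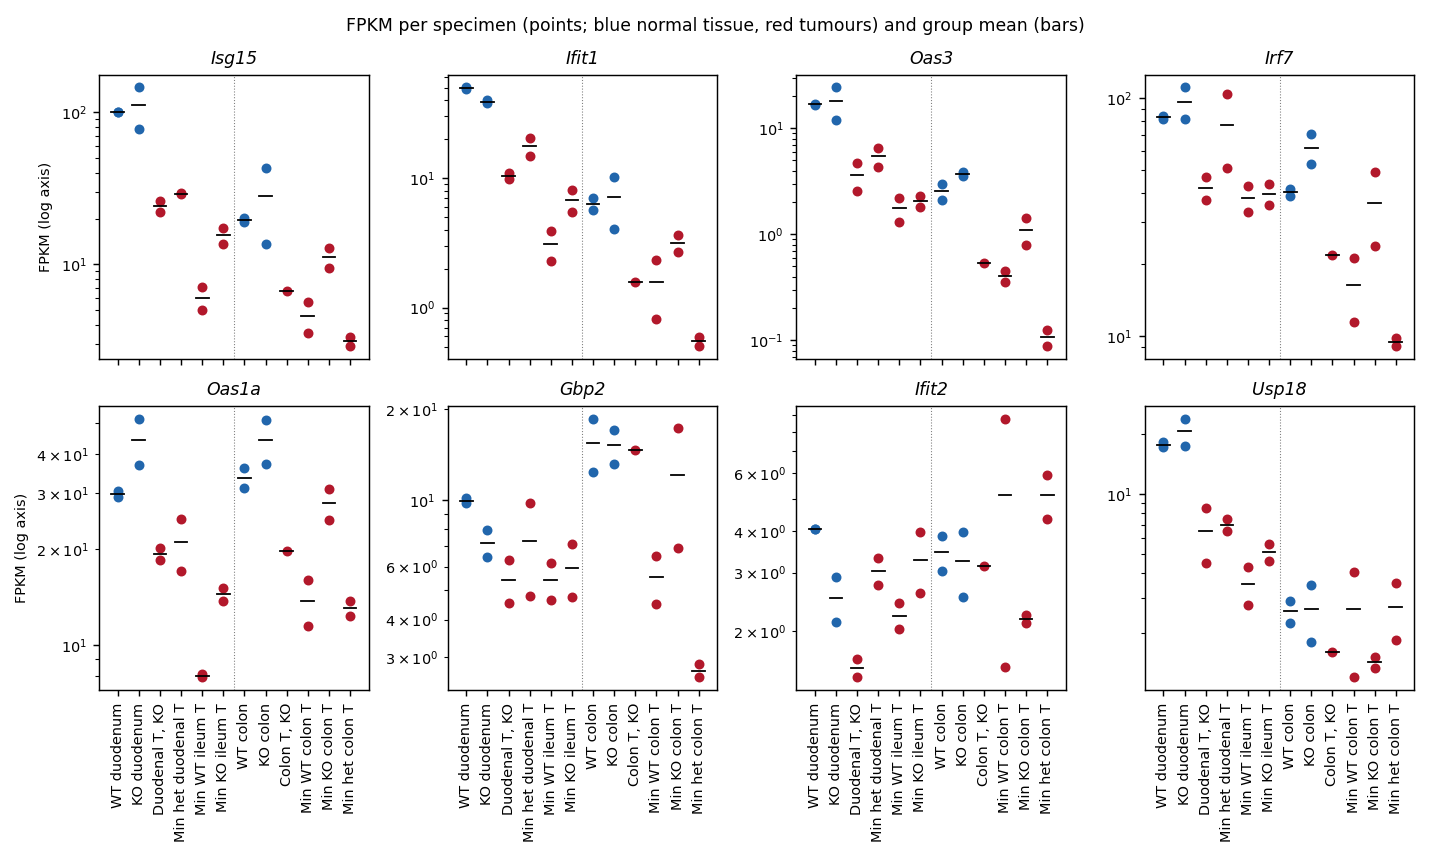
FPKM (log axis) of 8 genes in each specimen (points, blue for normal tissue and red for tumours) with group means (bars), by group along the horizontal axis. Isg15, Ifit1, Oas3 and Irf7 are lowest in heterozygous colon tumours, whereas Ifit2 is highest in 1 of the 2 ApcMin wildtype colon tumours, at 8.78 FPKM.

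Normal duodenum was set against normal colon with both Cftr genotypes pooled. Sensors, transcription factors, modifiers and most effectors were higher in duodenum, whereas the GTPases were divided. Of the 37 members, 28 rose and 1 fell, against 28.5% of all tested genes higher and 27.1% lower. Without knockout duodenum 1, 27 rose and the median log2 change of 0.90 became 0.94. The median of all genes lay within 0.024 of 0 in every comparison here. All changes are on the log2(FPKM + 1) scale, which understates those of low genes, and were tested with limma and Benjamini-Hochberg adjustment. Every duodenum sample lay above every colon specimen for 29 members, which held for 33.6% of all genes, and below for 2, which held for 31.8%.

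All 4 sensors rose. Ddx58 lay at 5.73 to 7.07 FPKM in the 4 colon specimens and at 17.3 to 21.4 FPKM in duodenum, without overlap, a change of 1.53 ± 0.13 (SE, 3 against 4 samples, limma adjusted p = 8.83e-07). Ifih1 changed less, by 0.42 ± 0.15. All 3 transcription factors rose, Stat2 by 0.90 ± 0.13 and Irf7 by 0.83 ± 0.30. Irf7, the factor that amplifies interferon production, was the most abundant of them at 81.4 to 111 FPKM in duodenum. All 6 modifiers rose, with Usp18 from 1.80 to 3.47 FPKM in colon to 17.2 to 23.8 FPKM in duodenum (2.50 ± 0.30) and Isg15 by 2.20 ± 0.33.

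Of the 18 effectors, 14 rose. Ifit1 went from 4.02 to 10.2 FPKM in colon to 38.2 to 50.2 FPKM in duodenum (2.60 ± 0.28, limma adjusted p = 7.59e-06), and Oas3 from 2.12 to 3.87 FPKM to 11.9 to 24.3 FPKM (2.15 ± 0.24, limma adjusted p = 1.18e-05). Ifi35 had the smallest p, at 20.7 to 23.1 FPKM in colon and 79.3 to 94.2 FPKM in duodenum (1.94 ± 0.12, limma adjusted p = 6.82e-08). The 4 effectors that did not pass were Oas1a (-0.08 ± 0.17), Oas1g (-0.12 ± 0.21), Rsad2 (0.08 ± 0.17) and Ifit2 (-0.03 ± 0.34). Oas1a thus spanned much the same levels in colon (31.1 to 50.96 FPKM) as in duodenum (29.3 to 51.5 FPKM), while its cluster neighbour Oas3 differed without overlap. Rsad2 likewise did not pass, whereas Cmpk2, beside it on chromosome 12, rose by 1.73 ± 0.20. Among the 6 GTPases only Igtp rose (1.70 ± 0.25) and only Gbp2 fell (-0.77 ± 0.30, limma adjusted p = 0.0428). Gbp2 lay at 12.4 to 18.6 FPKM in colon and 6.48 to 10.1 FPKM in duodenum. Gbp3, Gbp7, Irgm1 and Iigp1 did not pass, with changes from -0.18 to 0.57.

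Markers of T cells, which the epithelium harbours as intraepithelial lymphocytes, moved with these genes. Of 13 T cell genes 8 rose in duodenum, and their summed FPKM was 214 to 237 there and 18.7 to 61.2 in colon, with none of the 13 at 0. Macrophage and smooth muscle markers went the other way. They summed to 234 to 342 and 790 to 856 FPKM in duodenum, against 360 to 490 and 2354 to 2961 FPKM in colon. The part of these cells in the result was not tested. Markers of natural killer cells summed to at most 1.92 FPKM in any specimen.

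Heterozygous ApcMin duodenal tumours differed from heterozygous ApcMin colon tumours in the same direction and by more, although here each organ came from a different mouse. Of the 37 members, 35 rose, against 19.7% of all genes higher, with a median change of 1.43. Both duodenal tumours lay above both colon tumours for 36 members, against 34.2% of all genes. Ifit1 was at 14.9 and 20.4 FPKM in the duodenal and 0.594 and 0.505 FPKM in the colon tumours (3.58 ± 0.36), and Oasl2 at 17.1 and 25.7 against 1.12 and 1.06 FPKM (3.40 ± 0.40). All 6 GTPases rose, Gbp2 included (1.09 ± 0.38). The exceptions were Trim30a (0.51 ± 0.28, not passing) and Ifit2 (-0.60 ± 0.43, not passing), the latter at 2.76 and 3.33 FPKM in duodenal and 5.94 and 4.35 FPKM in colon tumours. T cell markers rose too, 12 of 13, with sums of 164 and 453 FPKM against 11.3 to 14.2. All 6 neutrophil markers fell, from 1573 to 2071 FPKM summed in the colon tumours to 40.2 to 41.5 in the duodenal ones. The part of these cells was not tested.

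Between ileum and colon tumours of the same ApcMin mouse few members passed, at shares near or below those of all genes. With wildtype Cftr, 3 rose against 7.05% of all genes: Oasl1 (1.83 ± 0.30), Cmpk2 (1.23 ± 0.25) and Ifi35 (0.81 ± 0.15). In knockout tumours 3 rose against 7.17% of all genes, namely Usp18 (1.33 ± 0.38), Ddx58 (0.72 ± 0.16) and Ifi35 (0.71 ± 0.15), and Oas1a fell (-0.90 ± 0.22) against 6.21% of genes lower. The median changes were 0.28 and 0.22. The wildtype median became 0.47 without colon tumour 1 and 0.02 without colon tumour 2, and the knockout median 0.14 without colon tumour 2 or without ileum tumour 2. Oas1a lay at 7.90 and 8.08 FPKM in wildtype ileum tumours and 11.5 and 16.0 FPKM in colon tumours (-0.69 ± 0.22, limma adjusted p = 0.0554). The counts moved with single specimens. Of wildtype members, 4 were higher and 2 lower (Oas1a and Oas1g) without colon tumour 1, and 4 higher and 1 lower (Ifit2) without colon tumour 2. Of knockout members, 1 was higher (Ifi35) and 1 lower (Oas1a) without colon tumour 1, 1 was higher (Ifi35) without ileum tumour 1, and 0 passed without ileum tumour 2. T cell markers summed to 68.9 to 74.8 FPKM in wildtype ileum and 15.2 to 20.5 in wildtype colon tumours, and 4 of 13 rose. In knockout tumours the sums were 50.6 to 68.6 and 14.4 to 14.7 FPKM, and 5 of 13 rose; their part was not tested.

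**Figure D3:**
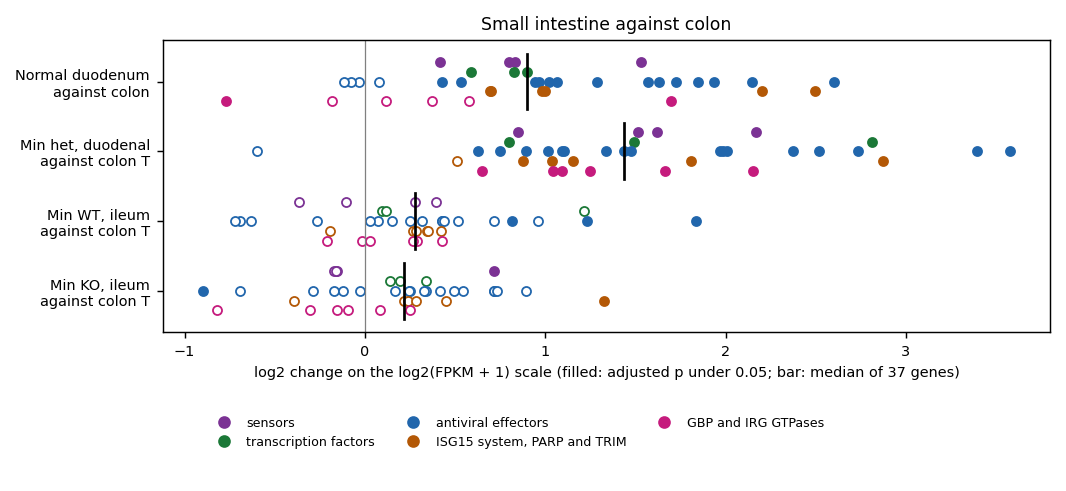
Change of each of the 37 genes (points, coloured by role; filled where the adjusted p is under 0.05) between small intestine and colon, as log2 change along the horizontal axis, with the median as a bar. Medians are 0.90 for normal tissue, 1.43 for heterozygous tumours, and 0.28 and 0.22 for ileum against colon tumours.

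Tumours were then set against normal tissue of their organ. Members fell in all 6 such comparisons and none rose. They share normal specimens, since knockout colon, wildtype colon and knockout duodenum each enter more than one of them, and so are not separate evidence.

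In knockout Apc wildtype mice, duodenal tumours were lower than duodenum in 23 members, against 4.23% of all genes lower, and all 37 changes were negative with a median of -1.03. Both tumours lay below both duodenum specimens for 35 members, against 30% of all genes. Those that fell were 3 of 4 sensors, 1 of 3 transcription factors, 14 of 18 effectors, 3 of 6 modifiers and 2 of 6 GTPases. Isg15 fell from 78.0 and 146 to 22.1 and 26.0 FPKM (-2.11 ± 0.41, limma adjusted p = 0.00807) and Oas3 from 11.9 and 24.3 to 4.71 and 2.55 FPKM (-2.01 ± 0.31). Oas2, the synthetase with the smallest p, fell from 2.95 and 5.09 to 0.530 and 0.584 FPKM (-1.66 ± 0.17, limma adjusted p = 0.000152). Igtp fell by 1.74 on the log2 scale. Oasl1 stood apart from its neighbour Oasl2: it held 66.6 and 51.9 FPKM in duodenum and 44.6 and 75.3 FPKM in tumours (-0.02 ± 0.30), while Oasl2 fell by 1.90. Gbp2 (-0.36 ± 0.38) and Iigp1 (-0.08 ± 0.36) did not pass. The count was 15 without duodenum 1, 13 without duodenum 2 and 15 without tumour 2. Smooth muscle markers, at 846 to 856 FPKM summed in this duodenum and 122 to 582 in the tumours, had no gene that passed, and T cell markers summed to 178 to 195 FPKM in the tumours against 214 to 216, also with no gene that passed. Neutrophil markers summed to 46.6 to 50.1 FPKM against 5.14 to 6.34, and 2 of 6 rose. The 15 markers of small-intestinal enterocytes summed to 21802 to 29087 FPKM in the tumours against 33695 to 36174. The part of these cells was not tested.

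In heterozygous ApcMin duodenal tumours, 18 members fell relative to normal duodenum, compared in run 1 libraries, against 9.26% of all genes lower. The median was -0.54, and both tumours lay below every duodenum sample for 23 members, against 24.7% of all genes. Trim30a, a protein of the TRIM family, was at 2.62 and 2.69 FPKM in these tumours and fell by 1.62 (SE 0.27). Dhx58 was at 4.08 and 4.35 FPKM and fell by 1.15, and Isg15 fell by 1.87. The tumours were unlike each other. Tumour 2 held 62.6 FPKM of Zbp1, 104 FPKM of Irf7 and 44.9 FPKM of Parp9, against 22.5, 50.6 and 25.2 FPKM in tumour 1, and the T cell marker sums of the pair were 164 and 453 FPKM, with tumour 2 the higher. Zbp1 (-0.24 ± 0.40), Irf7 (-0.34 ± 0.29) and Parp9 (-0.01 ± 0.21) did not pass. The count was 7 without tumour 1, with 1 of these higher, 9 without knockout duodenum 2, 13 without knockout duodenum 1 and 0 with the compared groups fitted alone. The median became -0.84 without tumour 2. Neutrophil markers summed to 40.2 to 41.5 FPKM in the tumours and 5.14 to 6.49 in duodenum, and 3 of 6 rose. Smooth muscle markers summed to 458 to 626 against 790 to 856 with no gene that passed. Markers of small-intestinal enterocytes summed to 22049 to 28142 FPKM in the tumours against 33695 to 36717. The part of these cells was not tested. Between knockout and heterozygous duodenal tumours themselves none of the 37 members passed, against 1.32% of all genes. Of the changes 30 were negative, with a median of -0.28. The member nearest the threshold was Irgm1, at 15.0 and 8.98 against 20.9 and 37.1 FPKM (-1.12 ± 0.28, limma adjusted p = 0.0933). At an unadjusted p under 0.05 there were 10 members, against 18.9% of all genes. Without heterozygous tumour 1, which left 1 such tumour, Irgm1 changed by -1.52. Without knockout tumour 1, which also left 1, Irgm1 changed by -1.47 and Oasl1 by 1.00. The median became -0.56 without heterozygous tumour 1, -0.05 without heterozygous tumour 2 and -0.43 without knockout tumour 1.

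Colon tumours of heterozygous ApcMin mice had the most members lower. Relative to normal colon in run 1 libraries 31 fell, against 26.5% of all genes lower, with a median of -1.23. Both tumours lay below all 4 colon specimens for 34 members, against 36.6% of all genes. All 4 sensors, all 3 transcription factors, 15 of 18 effectors, 3 of 6 modifiers and all 6 GTPases fell. Irf7 was at 9.09 and 9.84 FPKM against 43.4 to 77.3 FPKM in colon (-2.38 ± 0.27, limma adjusted p = 0.000233). Oasl2 was at 1.12 and 1.06 FPKM against 10.4 to 26.2 FPKM (-3.02 ± 0.39), and Ifit1 at 0.594 and 0.505 against 4.30 to 10.5 FPKM (-2.33 ± 0.29). Gbp2 fell by 2.08. The 6 members that did not fall were Ifit2 (0.48 ± 0.21), Usp18 (-0.06 ± 0.31), Parp9 (-0.17 ± 0.20), Dtx3l (-0.28 ± 0.21), Mx2 (-0.40 ± 0.22) and Cmpk2 (-0.61 ± 0.24). The epithelial markers of these tumours summed to 6753 to 6993 FPKM and of colon to 7447 to 10731, and 7 of 9 fell. All 6 smooth muscle markers fell as well, from 2354 to 2961 FPKM summed to 557 to 750. The 8 colonocyte markers summed to 7405 to 10172 FPKM in colon and 1450 to 1533 in these tumours. In other colon tumours they summed to 834 to 3569 (ApcMin wildtype), 2643 to 3407 (ApcMin knockout) and 1419 (Apc wildtype knockout). Neutrophil markers rose from 2.81 to 7.52 FPKM summed in colon to 1573 to 2071, and all 6 rose. The part of these cells in the fall of the members was not tested.

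ApcMin wildtype colon tumours had 24 members lower than wildtype colon in run 2 libraries, against 18.9% of all genes lower, with a median of -0.76. Both tumours lay below both colon specimens for 30 members, against 35.2% of all genes. All 3 transcription factors, 2 of 4 sensors, 12 of 18 effectors, 3 of 6 modifiers and 4 of 6 GTPases fell. Rtp4 (-1.58 ± 0.24), Oas1g (-1.62 ± 0.26), Rsad2 (-1.35 ± 0.21) and Ifih1 (-0.98 ± 0.15) were among the 8 with the smallest p. Rsad2 was at 0.517 and 0.637 FPKM in tumours and 2.56 and 3.57 FPKM in colon. The 2 tumours disagreed on Ifit2, at 8.78 and 1.55 FPKM, and on Usp18, at 4.06 and 1.19 FPKM, neither of which passed. Neutrophil markers summed to 127 and 810 FPKM in the pair and all 6 rose, while all 6 smooth muscle markers, 6 of 13 T cell markers and 5 of 8 markers of B and plasma cells fell. Their part was not tested. The count was 15 without colon 1 and 11 without colon 2.

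ApcMin knockout colon tumours had 6 members lower than knockout colon in run 2 libraries, against 5.62% of all genes lower: Rsad2 (-1.02 ± 0.21), Stat2 (-0.56 ± 0.11), Oas1g (-1.22 ± 0.26), Oas2 (-0.78 ± 0.19), Oas3 (-1.20 ± 0.31) and Ifit3 (-0.72 ± 0.20). The median was -0.47. Both tumours lay below both colon specimens for 29 members, against 31.1% of all genes. The 2 knockout colons differed widely in some members, Isg15 being at 13.9 and 38.7 FPKM, and the count was 0 without colon 2 and 1 without either tumour. The median was -0.26 without colon 2. Smooth muscle markers summed to 226 to 592 FPKM in these tumours and 2354 to 2961 in colon, and 1 of 6 fell. Neutrophil markers summed to 62.8 to 175 against 5.75 to 7.52, and 2 of 6 rose, and markers of B and plasma cells to 149 to 213 against 472 to 757, and 2 of 8 fell; their part was not tested. The 1 Apc wildtype knockout colon tumour, compared in both runs, had 11 members lower, against 5.7% of all genes lower, with a median of -0.46. The tumour lay below both colon specimens for 29 members, against 43.3% of all genes. Oas1g was at 5.07 FPKM against 17.5 and 24.9 FPKM (-1.85 ± 0.32) and Oasl2 at 3.67 against 10.7 and 26.9 FPKM (-1.95 ± 0.49). With 1 tumour, its spread was assumed to equal that of the other groups, and without knockout colon 2 the count was 2 and the median -0.30. None of the GTPases passed in it. Its neutrophil markers summed to 488 FPKM, against 5.75 to 7.52 in colon, and 5 of 6 rose; their part was not tested. No member passed by limma for a difference of the tumour change between knockout and wildtype ApcMin colon (0 of 37, and 0.00709% of all genes). At an unadjusted p under 0.05 there were 4 members, against 8.54% of all genes. The median difference was 0.38, meaning a less negative tumour change in the knockouts. The difference of Ifit2 was -1.59 without wildtype colon tumour 2, which left 1 such tumour, and 0.349 without wildtype colon tumour 1. The median difference was 0.12 without knockout colon 1, 0.21 without wildtype colon tumour 2 and 0.25 without ApcMin knockout colon tumour 1.

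**Figure D4:**
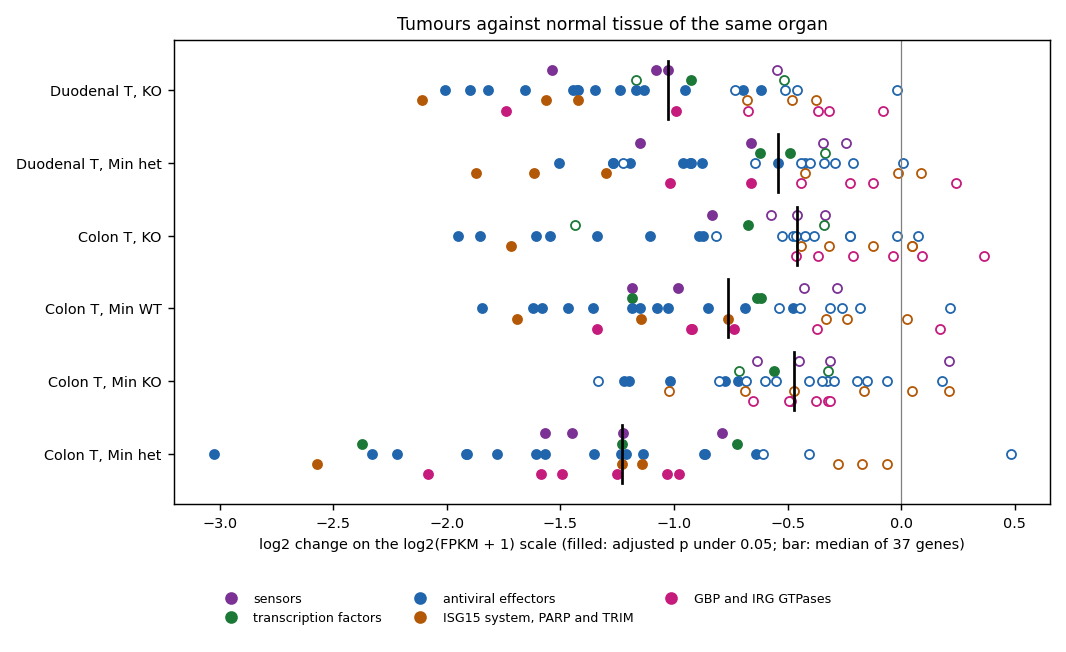
Change of each of the 37 genes (points, coloured by role; filled where the adjusted p is under 0.05) from normal tissue to tumour of the same organ, as log2 change along the horizontal axis, with the median as a bar. Medians run from -0.46 in the single knockout colon tumour to -1.23 in heterozygous colon tumours, and no filled point lies right of 0.

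Cftr genotype was compared within normal tissue and within ApcMin tumours. No member passed in any of the 4 comparisons. In normal colon, where 0% of genes passed, 19 of 37 changes were positive with a median of 0.00, which ran from -0.17 without knockout colon 2 to 0.24 without knockout colon 1. One member, Oas2, had an unadjusted p under 0.05, against 6.72% of all genes, at 1.34 and 1.87 FPKM in knockout and 0.986 and 0.983 FPKM in wildtype (0.38 ± 0.17, limma adjusted p = 0.722). Irf7 was at 70.7 and 52.6 FPKM against 41.5 and 38.9 FPKM, higher without overlap (0.59 ± 0.38, limma adjusted p = 0.839). The run 1 library of wildtype colon 2 stood apart from its run 2 library, with an SD over genes of 0.276 against 0.102 to 0.136 for the other specimens. Leaving it out made no member pass.

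In normal duodenum, where 0% of genes passed as well, 2 knockout specimens were set against 1 wildtype sample, the mean of its 2 specimens, whose spread was taken from the other groups. Of the 37 changes 23 were positive, with a median of 0.04, which became 0.16 without knockout duodenum 1 and -0.06 without knockout duodenum 2. No member passed without either. At an unadjusted p under 0.05 there were 3 members, against 2.61% of all genes, and they went in different directions. Ifit3 was at 11.6 and 11.3 FPKM in knockout and 21.8 and 21.3 FPKM in wildtype duodenum (-0.85 ± 0.29), Gbp7 was lower too (-0.56 ± 0.25), and Mx1 was higher (0.56 ± 0.23). Of the 6 GTPases 5 had negative and of the 6 modifiers 6 had positive changes, none of which passed. For the difference of the genotype change between duodenum and colon, no member passed by limma. At an unadjusted p under 0.05 there was 1 member, Ifit3, against 2.23% of all genes.

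In ApcMin colon tumours, knockout specimens had the higher level in 32 of 37 members, with a median change of 0.39 against 0.00 for all genes. No member passed, while 0.0638% of all genes did. At an unadjusted p under 0.05 there were 12 members, against 12.1% of all genes, and for 24 members both knockout tumours lay above both wildtype tumours, against 17% of all genes. Oasl1, an inhibitor of Irf7 translation, was at 14.9 and 22.8 FPKM in knockout and 4.69 and 9.26 FPKM in wildtype tumours (1.35 ± 0.30, limma adjusted p = 0.16). Isg15 was at 9.39 and 12.8 against 5.64 and 3.53 FPKM (1.13 ± 0.41, adjusted p = 0.318). Oas1a was at 24.8 and 31.0 against 11.5 and 16.0 FPKM (0.98 ± 0.22, adjusted p = 0.148), and Rtp4 at 4.82 and 6.05 against 2.86 and 1.45 FPKM (1.06 ± 0.23, adjusted p = 0.148). These 4 did not overlap between genotypes. Ifit2 (-0.65 ± 0.43) and Usp18 (-0.46 ± 0.38) had the largest negative changes, and both turned positive without wildtype colon tumour 1, at 0.32 and 0.14. Without wildtype colon tumour 2, 6 members passed: Oasl1, Oas1a, Oas1g, Irf7 and Ifih1 higher and Ifit2 lower. Neutrophil markers summed to 62.8 to 175 FPKM in knockout and 127 to 810 FPKM in wildtype tumours, and T cell markers to 14.4 to 14.7 and 15.2 to 20.5 FPKM. Markers of B and plasma cells summed to 149 to 213 FPKM in knockout and 606 to 662 in wildtype tumours, with none of 8 passing, and macrophage markers to 263 to 266 against 272 to 490, with 1 of 11 lower. Their part in these values was not tested.

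In ApcMin ileum tumours 32 of 37 changes were again positive, with a median of 0.32 against 0.01 for all genes, and no member passed while 0.121% of all genes did. The ileum and colon tumours of one genotype came from the same mouse, so the 2 organs are not separate evidence on the genotype. At an unadjusted p under 0.05 there were 9 members, against 5.85% of all genes, and 22 members were higher without overlap, against 19.6% of all genes. Isg15 was at 13.7 and 17.3 FPKM in knockout and 5.02 and 7.04 FPKM in wildtype tumours (1.24 ± 0.41, limma adjusted p = 0.472). Zbp1 was at 20.7 and 28.4 against 10.5 and 13.2 FPKM (0.99 ± 0.41, adjusted p = 0.743), and Ifit1 at 5.49 and 8.07 against 3.92 and 2.30 FPKM (0.93 ± 0.36, adjusted p = 0.638). Markers of B and plasma cells summed to 132 to 175 FPKM in knockout and 271 to 460 in wildtype tumours and macrophage markers to 171 to 184 against 257 to 269, with no gene that passed, and their part was not tested. Oas1a and Oas1g had changes of 0.78 ± 0.22 and 0.88 ± 0.26. Oasl1 and Irf7, among the larger differences in colon tumours, had changes of 0.01 ± 0.30 and 0.06 ± 0.38 in the ileum. No member passed the limma test of a difference in the genotype change between ileum and colon tumours. At an unadjusted p under 0.05 there was 1 member, Oasl1, against 4.8% of all genes. Without wildtype colon tumour 2, which left 1 such tumour, the difference of Ifit2 in that test was 2.02.

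**Figure D5:**
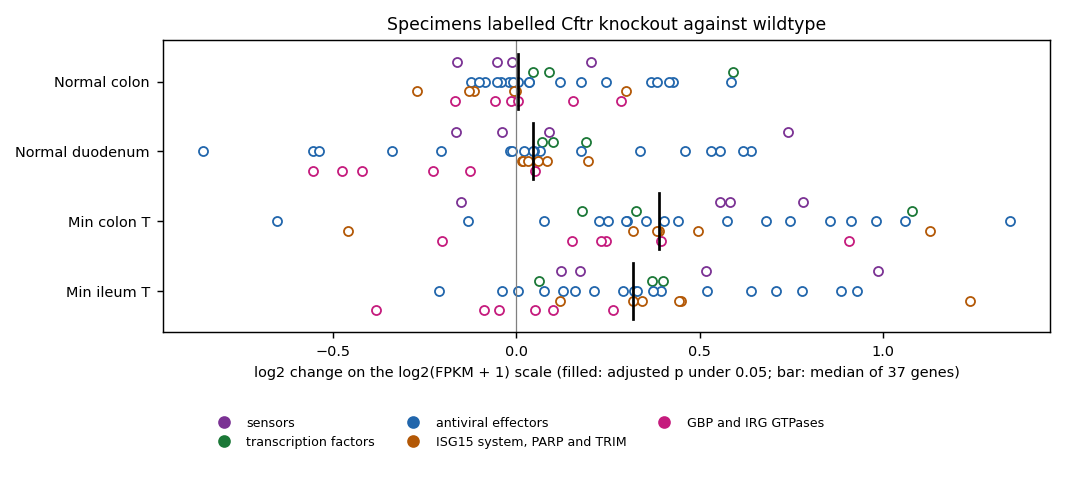
Change of each of the 37 genes (open points, coloured by role) between specimens labelled Cftr knockout and wildtype, as log2 change along the horizontal axis, with the median as a bar. No gene passed the test; medians are 0.00 and 0.04 in normal colon and duodenum and 0.39 and 0.32 in ApcMin colon and ileum tumours.

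Other genes of the interferon pathway were counted from fixed lists, 90 of them tested. The interferons themselves were barely seen. Of 13 genes of interferons and of cytokines that induce interferon gamma, 7 to 9 were listed at 0 throughout a group, Ifnl2 and Ifnl3 were listed at 0 in all 23 specimens, and Ifng reached at most 0.235 FPKM. Receptor RNA was present everywhere. Ifnlr1, the specific chain of the type III receptor, was at 7.35 to 8.80 FPKM in normal duodenum and 4.60 to 5.44 FPKM in normal colon and rose by 0.60 on the log2 scale between them. Ifnar2 of the type I receptor rose by 1.38 there and Ifngr1 of the interferon gamma receptor fell by 1.10. In duodenum against colon, 45 of the 90 rose and 6 fell, against 28.5% of all genes higher and 27.1% lower.

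The wider pathway was counted in a separate comparison for each kind of colon tumour, so the counts are not a test between tumours. For the difference of the tumour change between ApcMin knockout and wildtype colon, none of the 90 passed. Trim12c had the smallest p there (0.66 ± 0.16, limma adjusted p = 0.489). In heterozygous tumours 59 of the 90 were lower and 8 higher, against 26.5% of all genes lower and 3773 of 14098 higher. In ApcMin wildtype tumours 44 were lower and 7 higher, against 18.9% of all genes lower and 2692 of 14098 higher. In ApcMin knockout tumours 11 were lower and 3 higher, against 5.62% of all genes lower and 741 of 14098 higher. In the Apc wildtype knockout tumour 6 were lower and 7 higher, near the shares of all genes, 5.7% lower and 1004 of 14098 higher. All 16 genes of antigen presentation by class I and class II molecules and their regulators fell in heterozygous and in ApcMin wildtype tumours. The exceptions included Socs3, a brake on cytokine signalling, which rose by 2.00 in heterozygous, 1.62 in ApcMin wildtype and 1.74 in ApcMin knockout tumours, and Ifitm1, a membrane protein that blocks viral entry, which rose by 2.85, 2.67 and 1.41 in the same order. In knockout duodenal tumours 20 of the 90 fell and 1, Ifitm1, rose (1.56), against 4.23% of all genes lower and 555 of 14098 higher. In the 4 Cftr comparisons none of the 90 passed, against the shares of all genes given above.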

How the data were processed

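RNA levels were measured by sequencing polyadenylated RNA of 23 specimens. The authors deposited FPKM values in 1 table of 23356 rows and 68 columns, and per the submitters' processing notes TopHat2 2.0.13, Cuffnorm and the mm10 build were used. No counts are given. Columns summed to between 476233 and 801309 FPKM, and 26.5% to 30.8% of their values were 0, which leaves members of low FPKM the least precise. Columns, which are lanes and 2 sequencing runs, were averaged per specimen. log2(FPKM + 1) was tested with limma 3.58.1 in R 4.3.3 (eBayes with a trend) for 14098 genes, those reaching 1 FPKM in 2 or more specimens, with Benjamini-Hochberg adjustment at 0.05, and all groups shared one spread. Heterozygous tumours were compared with normal tissue or other duodenal tumours in run 1, and ApcMin wildtype and knockout colon tumours with colon in run 2. An exact permutation test of 2 against 2 cannot go below p = 0.333. Tested on simulated data, 78 to 89 of 100 2-fold changes were recovered in 6 comparisons. The changed genes were drawn from the more abundant genes only, with independent noise at each gene's fitted spread. Recovery was therefore not measured for low members such as Oas2, Mx2, Mx1 and Ifi44. For abundant members too, the simulated recovery is not the power of the real comparisons. Between genotypes in ApcMin colon tumours, Oasl1 and Isg15 had changes above 2-fold on this scale and did not pass. Duplicates of normal tissue and of knockout duodenal tumours carry different animal numbers, while each ApcMin pair shares 1 number. The shared spread thus mixes differences between animal numbers with differences between tumours of 1 number. The p-values measure only the spread between these specimens.

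The members and lists were chosen with earlier results of these data known. Named were, per comparison, the members that passed (up to 8, by p), the 2 largest changes in each direction, and the most abundant member of each role; other members named were chosen after their values were seen. The wildtype duodenum was planned as 2 samples and counted as 1. Normal colon and duodenum of one number come from one animal. Across all tested genes, the correlation of the deviations of such pairs was 0.0332 for knockout and 0.0103 for wildtype animals. The wildtype value says little, because the wildtype duodenum specimens differed by no more than their lanes. The members' mean log2 level was higher in knockout specimen 2 in both organs, at 3.03 and 3.41 in colon and 4.02 and 4.26 in duodenum. Whether pairing matters for the members was not tested. The other settings tried were quantile normalization, no filter, a pseudocount of 0.1, the compared groups alone, single runs, a replicate block, the wildtype duodenum as 2 specimens and each specimen left out. Overlaps and shared sequence are from GENCODE annotation and transcripts and promoters from RefSeq.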

Additional observations from a re-analysis of the deposited data

How the results depend on the processing

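The median change of the members kept its sign under every setting run in the 10 comparisons in which members passed, while its size and the counts moved. Most counts below, and the counts above with a specimen left out, come without the share of all genes that passed in the same fit. They therefore do not say whether members moved more or less than genes in general. Leaving out 1 specimen moved it by over 1.5 times in 5 of these: 0.02 to 0.47 and 0.14 to 0.26 for wildtype and knockout ileum against colon tumours, -0.61 to -0.26 in ApcMin knockout colon tumours, -0.65 to -0.30 in the knockout colon tumour and -0.84 to -0.44 in heterozygous duodenal tumours. With the compared groups alone, the members passing were 6 in knockout duodenal tumours, 2 in the knockout colon tumour, 2 in ApcMin wildtype and 1 in ApcMin knockout colon tumours, 0 in heterozygous duodenal tumours, 0 in wildtype ileum against colon tumours and 1 between genotypes in ileum tumours. Without the filter they were 7 in the knockout colon tumour and 9 in heterozygous duodenal tumours. For wildtype ileum against colon tumours they were 6 with a pseudocount of 0.1 and 5 with quantile normalization.

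With the replicate number as a block, Oasl1 alone, 1 member, passed between genotypes in ApcMin colon tumours (45 genes in all), and no other count moved by over 1.5 times; for duodenum against colon, where the numbers pair animals, 30 members passed. Leaving out 1 specimen at a time gave 0 to 6 members between genotypes in ApcMin colon tumours, 13 to 20 in knockout duodenal tumours, 2 to 9 in the knockout colon tumour, 11 to 22 in ApcMin wildtype, 0 to 4 in ApcMin knockout and 28 to 32 in heterozygous colon tumours, and 7 to 19 in heterozygous duodenal tumours. It gave 0 to 7 between duodenal tumours, 24 to 29 for duodenum against colon, 2 to 6 and 0 to 4 for ileum against colon tumours, 28 to 34 for heterozygous tumours, and 0 to 1 for the differences of the genotype change between tumour sites and of the tumour change between genotypes. The cause was not tested, beyond the fewer specimens of each such fit.

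Reversals of direction were looked for only among members picked in each comparison by p or by size of change. Other members, such as Oasl1 in knockout and Parp9 in heterozygous duodenal tumours, were not searched and may reverse too. Single members found to reverse are given with the lowest and highest value when either specimen of the varied group was left out. Between genotypes in normal colon, Trim30a ran from -0.5965 to 0.0517 without a knockout colon, and Gbp3 in the knockout colon tumour from -0.123 to 0.305; Gbp3 was -0.0216 with quantile normalization and -0.0183 in run 1 alone. Without an ApcMin wildtype colon tumour, Ifit2 ran from -1.62 to 0.317 and Usp18 from -1.06 to 0.143 between genotypes, and from -1.59 to 0.349 and from -1.10 to 0.105 in the difference of the tumour change. Against colon, Ifit2 ran from -0.757 to 1.18 and Iigp1 from -0.226 to 0.565, and Iigp1 was -0.120 without wildtype colon 1. Without an ApcMin knockout colon tumour, Dtx3l ran from -0.0459 to 0.468 and Zbp1 from -0.0882 to 0.505. Without a heterozygous duodenal tumour, Dtx3l ran from -0.379 to 0.551 and Irgm1 from -0.160 to 0.640. None of these members passed with all specimens included. Depth limits members under 1 FPKM in tumours, such as Oas2 and Mx2.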
